A study of Mus musculus with 15 samples.

Results

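Serine proteases and their inhibitors formed a group of 73 genes among the 28269 genes listed in these mouse uterine RNA sequencing tables. They were the genes named Klk, Prss, Tmprss, Serpin, Spink, Spint or Wfdc with a mean value of at least 10 in at least 1 of 5 sample groups, leaving out 6 named genes (Prss28, Prss29, Prss12, Spink1, Wfdc2 and Wfdc3). Of 110 names of this form, 37 were below that level. The 3 genes nearest above it were Prss35 (10.5), Serpinf2 (12.1) and Tmprss3 (12.6), and the 3 nearest below were Spink2 (9.81), Prss16 (9.35) and Tmprss7 (8.12), each by its highest group mean. The choice rested on the names and on these levels, with earlier results of the same data known, so the levels are given as a description. The highest group mean lay in U-OEx LE for 39 genes, in WT LE for 15, in WT GE for 8, in E-OEX GE for 7 and in E-OEX LE for 4, and a gene that reached the level through 1 group alone had to be high there. The 73 genes were 7 kallikreins (Klk), 12 Prss genes, 10 Tmprss genes, 29 serpins, 3 Spink, 3 Spint and 9 Wfdc genes.

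The libraries came from uterine epithelium on day 4, as the labels put it, with 3 libraries in each of 5 groups. Wild-type (WT) animals gave the surface lining of the uterine lumen (luminal epithelium, LE) and the cells of its glands (glandular epithelium, GE). Animals labelled as overexpressing Notch1 fell into E-OEX, with LE and GE, and U-OEx, with LE alone. The labels do not say what E-OEX and U-OEx stand for, what drives Notch1, how old the animals were or whether libraries came from separate animals. The p-values therefore measure only the spread between these libraries, which may be technical.

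A value is a read count divided by 1 factor per library. The WT tables list 6414 genes and those of E-OEX list 4903, nearly all at least 2-fold apart between LE and GE of that genotype, while those of U-OEx list 27946. Of the 73 genes, 37 were listed in WT, 29 in E-OEX, 73 in U-OEx and 15 in all tables, and 22 were listed in U-OEx alone. A gene outside a table was not analysed there and was never taken as 0. The tables were scaled separately, so single library values below, on the deposited scale, are set across tables with that limit, and the genotype tests used reads rescaled together. Each WT library had 3818041 to 4797424 reads in listed genes, each E-OEX library 1980800 to 3494859 and each U-OEx library 13541644 to 14981505. Notch1 was measured in the U-OEx tables alone, at 2913, 3524 and 2789 in replicates 1 to 3, so the genotype labels were not checked on it.

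Marker genes followed the labelled epithelia, and 3 libraries stood apart within their groups. The summed value of 4 luminal markers (Wnt7a, Wnt7b, Calb1 and Lpar3) was 29877 to 54681 in WT LE and 396 to 844 in WT GE, and that of 6 glandular markers was 118 to 300.1 in WT LE and 16062 to 19587 in WT GE. WT LE replicate 2 had the highest stromal sum of its group (300.4, 6226 and 2082 in replicates 1 to 3, over 6 genes such as Col1a1 and Vim). E-OEX LE replicate 1 had the highest glandular sum of its group (1780.1, 557 and 192). U-OEx LE replicate 2 had the lowest sum of 7 leukocyte markers (10541, 2170.1 and 16386). GE libraries also carried stromal RNA, with sums of 27110 to 78415 in WT and 58801 to 69929 in E-OEX, and a smooth muscle sum over 4 genes of 2596 to 4669 in WT against 13352 to 16289 in E-OEX. Fewer cells of a type and less RNA per cell cannot be told apart in such bulk samples.

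Serine proteases cut proteins with a reactive serine and are mostly made as inactive precursors that another protease activates. Kallikreins and most Prss proteins are secreted or held at the cell surface, and Tmprss proteins span the membrane. Serpins offer a protease a loop as bait and trap it once the loop is cut. Spink, Spint and Wfdc proteins block the active site through small Kazal, Kunitz and whey acidic protein domains. In the uterus such enzymes and inhibitors are secreted into the lumen, where they act on the embryo coat, on the extracellular matrix and on ion channels of the epithelium.

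The Serpina1 genes, which encode forms of alpha-1-antitrypsin, include the member with the highest wild-type luminal level, and their sequences show how nearly alike they are. Over coding sequences of 1242 bases, taken from GENCODE M21 transcripts (build GRCm38), Serpina1a and Serpina1c were 96.5% identical to Serpina1e, and Serpina1b and Serpina1d 96.3%. Of all 50-base windows of Serpina1e, 61.0% were absent from the other 4, so the rest of its sequence cannot tell the copies apart, and the treatment of reads that match several copies is not given in the sources used here. The 60 coding bases from 1101 to 1160, the stretch where the other 4 genes differ most from Serpina1e, are shown because they separate the copies. Capitals mark the 18 positions that vary.
Serpina1e: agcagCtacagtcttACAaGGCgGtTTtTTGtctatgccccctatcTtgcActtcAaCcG
Serpina1a: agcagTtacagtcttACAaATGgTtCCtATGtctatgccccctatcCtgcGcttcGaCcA
Serpina1b: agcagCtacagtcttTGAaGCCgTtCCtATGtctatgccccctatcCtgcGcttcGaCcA
Serpina1c: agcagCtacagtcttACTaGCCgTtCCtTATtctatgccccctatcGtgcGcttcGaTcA
Serpina1d: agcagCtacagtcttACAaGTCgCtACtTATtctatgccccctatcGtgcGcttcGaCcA

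Promoters are shown for 4 genes on whose luminal values the results turn, Klk10 and its neighbour Klk11, Wfdc15b and Serpina1e. They run from 250 bases before a gene's start to 50 after it, from RefSeq on build GRCm38.p6, with the transcribed bases in capitals. The Klk10 window lies at chr7:43780804-43781103 on the plus strand, that of Klk11 at chr7:43774367-43774666 on the plus strand (the first of its 2 starts), that of Wfdc15b at chr2:164221614-164221913 on the minus strand and that of Serpina1e at chr12:103956848-103957147 on the minus strand.
Klk10: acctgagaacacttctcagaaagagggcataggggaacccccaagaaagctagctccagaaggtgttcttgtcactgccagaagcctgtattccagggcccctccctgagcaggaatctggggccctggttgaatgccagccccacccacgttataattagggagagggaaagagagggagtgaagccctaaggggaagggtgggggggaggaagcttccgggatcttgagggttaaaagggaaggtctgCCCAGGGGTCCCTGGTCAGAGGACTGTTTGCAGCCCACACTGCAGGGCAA
Klk11: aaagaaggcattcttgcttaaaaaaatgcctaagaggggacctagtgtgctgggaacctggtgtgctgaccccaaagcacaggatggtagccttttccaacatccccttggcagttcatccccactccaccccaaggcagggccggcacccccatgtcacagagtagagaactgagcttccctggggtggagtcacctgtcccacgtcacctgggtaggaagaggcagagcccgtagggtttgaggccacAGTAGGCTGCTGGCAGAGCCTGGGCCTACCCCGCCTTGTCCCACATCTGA
Wfdc15b: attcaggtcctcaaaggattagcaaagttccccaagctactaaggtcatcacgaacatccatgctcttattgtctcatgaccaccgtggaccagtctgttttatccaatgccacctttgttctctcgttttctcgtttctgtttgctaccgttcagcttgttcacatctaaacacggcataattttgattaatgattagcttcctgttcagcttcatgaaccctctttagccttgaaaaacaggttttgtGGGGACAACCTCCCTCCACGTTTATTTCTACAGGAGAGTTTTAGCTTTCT
Serpina1e: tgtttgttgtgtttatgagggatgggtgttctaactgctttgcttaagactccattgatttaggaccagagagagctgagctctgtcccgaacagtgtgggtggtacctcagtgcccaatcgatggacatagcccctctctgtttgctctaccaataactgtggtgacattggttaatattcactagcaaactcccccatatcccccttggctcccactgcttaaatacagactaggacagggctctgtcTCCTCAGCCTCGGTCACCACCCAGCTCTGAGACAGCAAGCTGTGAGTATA
RBPJ is the DNA-binding partner of activated Notch. One form of its motif, GTGGGAA, searched on both strands, was found in 2097 of 32851 RefSeq mouse promoters of this length (6.38%) and in 2 of the 68 promoters of the 54 group genes that matched by symbol (2.94%). These 2 were promoters of Serpinb8 and Wfdc10, and the letters were not in the 4 windows shown.

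In wild type more of the group genes that were kept and listed were higher in LE than in GE. Of the 37 genes listed there, 23 (62.2%) were higher in LE, against 43.0% of all 6414 listed genes, and in E-OEX 17 of 29 (58.6%) were, against 36.1% of all 4903. These lists were selected on this very difference, so the values below are a description with no test. The counts lack the 6 genes left out by name, and only members had to reach a mean of 10. They include the 5 Serpina1 copies and the pair Prss23 and Prss23os, whose reads may be shared. All 4 kallikreins, 5 of 6 Prss genes and 5 of 7 Serpina genes listed in WT were higher in LE, while all 5 Tmprss genes were higher in GE. Per kilobase of exon, Serpina1e had the highest WT LE level of the group (5084), followed by Serping1 (1985), the C1 inhibitor of complement, and Prss23 (803). In WT GE the leaders per kilobase were Serpinh1 (1847), a collagen chaperone that inhibits no protease, Tmprss2 (1582) and Wfdc15b (1031). Serpinh1 stood at 3548, 6121 and 3868 in WT GE replicates 1 to 3, beside stromal sums of 39294, 78415 and 27110. In E-OEX GE it stood at 9596, 8141 and 7789, beside sums of 58801, 69929 and 66346. The part of stromal RNA in its level was not tested.

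**Figure D1:**
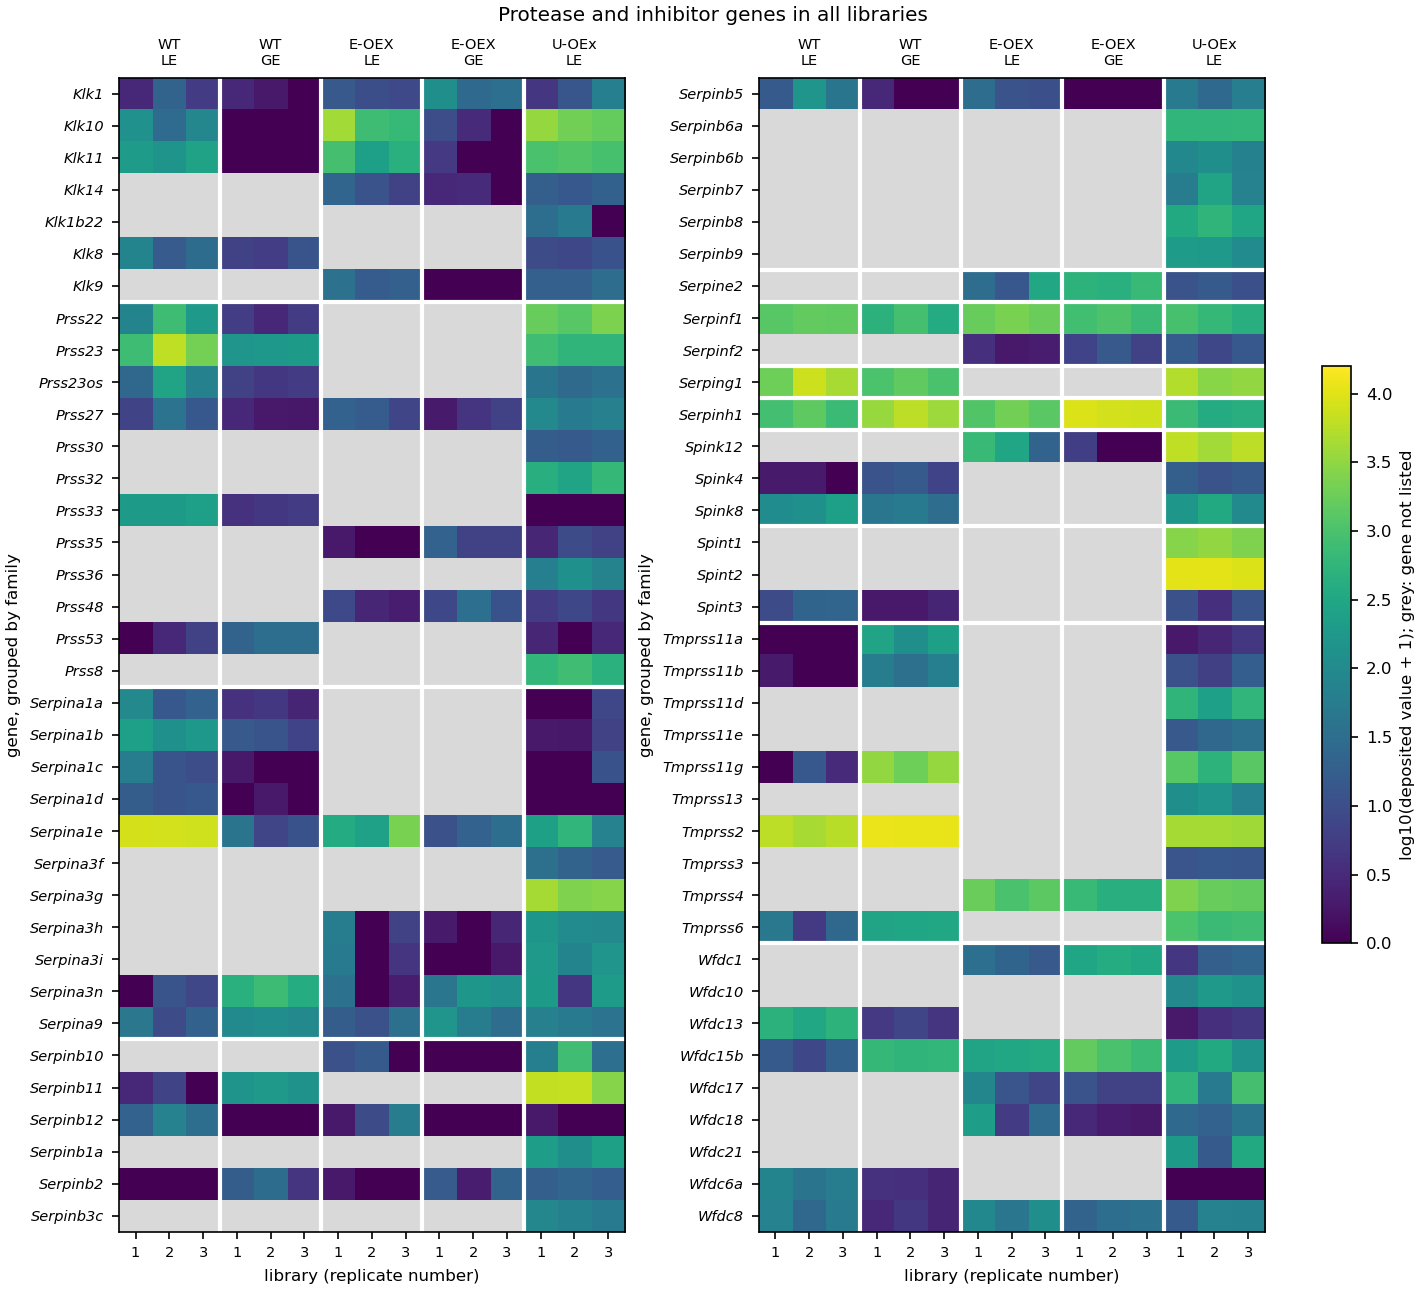
Values of 72 protease and inhibitor genes (rows, by family) in the 15 libraries (columns, by group), as log10(deposited value + 1), grey where a gene is not listed. Serpina1e is brightest in the 3 WT LE libraries, Tmprss2 in WT GE, and Spint2, listed in U-OEx alone, in U-OEx LE.

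The contrast between the epithelia was widest, on the log2(mean + 1) scale, for Tmprss11g, a membrane protease that stood at 0, 13.3 and 2.24 in WT LE and 3266, 1844 and 3477 in WT GE, and for Serpina1e (ENSMUSG00000072849, chr12:103946931-103958975, minus strand). Serpina1e stood at 8446, 8203 and 8011 in WT LE and 40.9, 6.64 and 10.4 in WT GE, 426-fold apart. The 3 luminal values lie within a narrow band and the glandular ones are spread more widely. Klk10 (ENSMUSG00000030693, chr7:43781035-43785410, plus strand) and Klk11 (ENSMUSG00000067616, chr7:43774604-43779263, plus strand), secreted proteases, had no read in any WT GE library and stood at 132, 28.7 and 88.3 and at 209, 149.5 and 258 in WT LE. The luminal excess was at least 29.7-fold for Klk10 and 73.8-fold for Klk11, taking 3 reads per library as the floor. In E-OEX, where they stood at 4221, 780.2 and 655 and at 907, 232 and 469.5 in LE, Klk10 had 9.01, 2.30 and 0 and Klk11 4.01, 0 and 0 in GE. Klk1 lay on different sides in the 2 genotypes, at least 3.23-fold higher in LE in WT and 6.05-fold higher in GE in E-OEX.

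The luminal epithelia of E-OEX and WT were compared first. Wfdc15b and Klk10 rose and Serpina1e fell, 3 of 14 genes tested (21.4%), where 10.7% of all 2600 genes tested passed, 5.12% higher and 5.54% lower. Tests were limma's, on log2(value + 1) of reads rescaled together, with adjustment over all genes tested and a threshold of 0.05. With a mean of at least 10 required of all, 3 of 12 passed, against 274 of 1979 over all genes. The median log2 change of the 14 was 0.25, against -0.09 for all genes. The 3 genes past the threshold were also the 3 whose groups did not overlap, against 29.9% of all genes.

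Wfdc15b (ENSMUSG00000018211, chr2:164214454-164221660, minus strand), a small whey acidic protein domain gene, stood at 14.5, 7.17 and 19.0 in WT LE and at 278, 333 and 375 in E-OEX LE. Every E-OEX library lay far above every WT one. The log2 change was 4.42 (SE 0.58, limma adjusted p = 0.00265), and it passed with each library left out in turn and under all 9 alternative settings. Its E-OEX luminal values remained below the WT GE values of 615, 557 and 596. The glandular marker sum was 1780.1, 557 and 192 in E-OEX LE replicates 1 to 3 and 118 to 300.1 in WT LE. Of the glandular markers Spdef was called higher in E-OEX LE (3.13), and Foxa2, Cxcl15, Lif, Ttr and Sox9 were not called. The part of gland RNA in the rise of Wfdc15b was not tested.

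Klk10 stood at 132, 28.7 and 88.3 in WT LE and at 4221, 780.2 and 655 in E-OEX LE. All 3 E-OEX libraries were above all WT ones, with replicate 1 more than 5-fold above the other two. The log2 change was 4.02 (SE 0.79, limma adjusted p = 0.0149). Replicate 1 also had the highest glandular marker values of its group (Foxa2 at 426, 41.8 and 52.9). Klk10 had at most 9.01 in any GE library of either genotype, and the part of gland RNA in its spread was not tested.

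Serpina1e stood at 386, 253 and 2269 in E-OEX LE, all far below WT LE, and its log2 change was -3.93 (SE 0.72, limma adjusted p = 0.012). Replicate 3, the highest, also had the highest values of the luminal markers Calb1 (4169, 1346 and 9677) and Lpar3 (1209.5, 819 and 3003), whose part in this spread was not tested. The luminal marker sum itself was 9776 to 15547 in E-OEX LE against 29877 to 54681 in WT LE. Klk10 and Serpina1e each failed the threshold without WT LE replicate 3, without E-OEX LE replicate 1 or without E-OEX LE replicate 2, with adjusted p up to 0.0624 and 0.0646 (limma), and only Wfdc15b then passed. Without WT LE replicate 2, the library with the high stromal sum, all 3 passed. The count over all genes was 56, 76, 62 and 117 without each of these 4 libraries in the order named, against 277.

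The other 11 genes did not pass in E-OEX LE. Klk11 was 209, 149.5 and 258 in WT LE and 907, 232 and 469.5 in E-OEX LE. Its log2 change was 1.03 (SE 0.54, limma adjusted p = 0.272), with a 95% interval of -0.19 to 2.25. The interval of Klk10 was 2.25 to 5.80, and the changes of Klk10 and Klk11 were not compared in a test. Serpinb5, which encodes maspin, had -1.73 (interval -3.64 to 0.17) and Serpinb12 -2.00 (interval -4.53 to 0.52). For Serpinf1, Serpinh1, Serpina3n, Serpina9, Prss27, Klk1 and Wfdc8 the log2 changes lay between -0.38 and 0.58, and each interval included 0. Serpinb2 had 0 reads in WT LE and at most 1 in E-OEX LE, and fell below the level needed for a test.

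**Figure D2:**
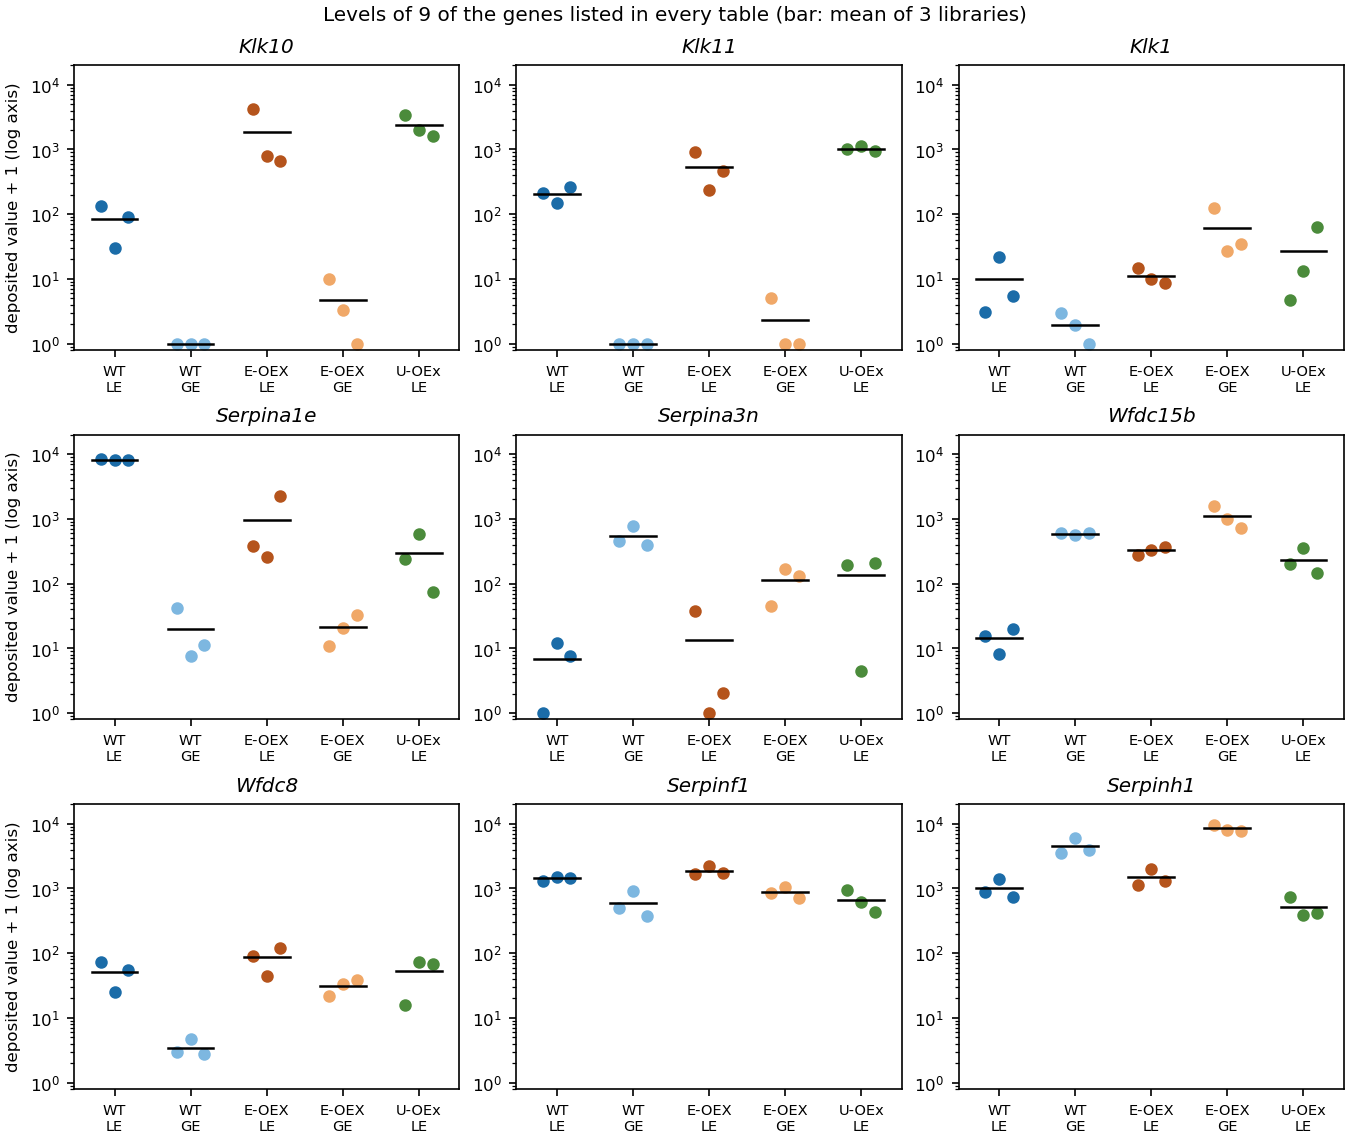
Deposited values + 1 on a log axis for 9 genes listed in every table, with 1 point per library and a bar at the mean of the 3 libraries of each group. Wfdc15b and Klk10 are higher in both overexpressing LE groups than in WT LE, Serpina1e is lower in both, and Serpinf1 and Serpinh1 vary less.

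In glandular epithelium Klk1 and Wfdc8 rose and Serpina3n fell in E-OEX, 3 of 12 genes tested (25%), where 23.5% of all 2851 genes passed (9.72% higher and 13.8% lower), so the share was near the background. The median log2 change of the 12 was 0.26 (0.12 with genes at the floor set to their bound), against 0.05 for all genes. Klk1 (ENSMUSG00000063903, chr7:44225360-44229618, plus strand), the tissue kallikrein that releases kinins, stood at 1.95, 0.948 and 0 in WT GE and at 123, 26.4 and 33.7 in E-OEX GE. WT GE was at the floor of 3 reads per library, so Klk1 was at least 16.6-fold higher (limma adjusted p = 0.00217). Wfdc8 (ENSMUSG00000070533, chr2:164596458-164613626, minus strand) stood at 1.95, 3.79 and 1.73 and at 21.0, 32.2 and 37.5, a log2 change of 2.79 (SE 0.47, limma adjusted p = 0.00261). In both genes the lowest E-OEX library was well above the highest WT one, and both passed in every alternative run. Of the 15 genes listed in both genotypes, Klk11, Serpinb5 and Serpinb12 were too low in GE for a test.

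Serpina3n (ENSMUSG00000021091, chr12:104406729-104414329, plus strand), of the antichymotrypsin family, stood at 460.3, 771 and 395 in WT GE and at 44.1, 166 and 132 in E-OEX GE, a log2 change of -2.84 (SE 0.45, limma adjusted p = 0.00185). The groups did not overlap. In 1 fit over all 5 groups it did not pass (limma adjusted p = 0.32). WT GE replicate 2, with the highest stromal sum of its group, had the highest Serpina3n value, while the E-OEX GE libraries had stromal sums of 58801 to 69929 and lower Serpina3n values, and the part of stromal RNA was not tested. On the rescaled values the groups of 4 of the 12 genes, Klk1, Wfdc8 and Serpina3n among them, did not overlap (33.3%, against 40.5% of all genes).

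The remaining genes tested in GE did not pass. The glandular marker sum was 7629 to 8345 in E-OEX GE and 16062 to 19587 in WT GE, and the luminal sum 529.8 to 1125.5 and 396 to 844, whose part in these values was not tested. Serpinh1 stood at 3548, 6121 and 3868 and at 9596, 8141 and 7789, a log2 change of 0.49 (SE 0.26, limma adjusted p = 0.226). It passed after quantile normalization and on the deposited scale (lowest limma adjusted p = 0.0211), where the median change of all genes was 0.50. Wfdc15b, at 1570.3, 1004 and 717 in E-OEX GE, had a log2 change of 0.36 (interval -0.40 to 1.11) and Serpina1e one of -0.09 (interval -1.60 to 1.41). Serpina9, Serpinb2, Serpinf1, Prss27 and Klk10 also missed the threshold (Serpina9 passed without E-OEX GE replicate 1), and Klk10 had 0 reads in WT GE and 9.01, 2.30 and 0 in E-OEX GE.

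Whether the genotype difference was unlike in GE and LE was tested as the interaction, the E-OEX minus WT change in GE less that in LE, on the deposited scale. It passed for 3 of 15 genes (20%), against 10.7% of all 2933 genes (5.83% positive and 4.91% negative). With a mean of at least 10 required of all, it passed for 3 of 13, against 322 of 2590 over all genes. Wfdc15b had -3.76 (SE 0.57, limma adjusted p = 0.00166), with the rise in LE and values of at least 557 in every GE library of both genotypes. Klk1 had 4.17 (SE 1.09, limma adjusted p = 0.0274), with the rise in GE and luminal values of 2.07, 20.5 and 4.47 in WT and 13.7, 9.08 and 7.56 in E-OEX. Serpina1e had 4.10 (SE 1.10, limma adjusted p = 0.031), with the fall in LE.

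Wfdc15b passed under every alternative run for the interaction. Klk1 did not pass with a pseudocount of 0.1, after rescaling the reads together, or without WT LE replicate 3, WT GE replicate 2 or 3, E-OEX LE replicate 2 or E-OEX GE replicate 1. Serpina1e did not pass after quantile normalization, in edgeR, or in 8 of the 12 fits that left out a library. Klk10 had an interaction of -2.51 (interval -5.24 to 0.22) and Wfdc8 of 2.42 (interval 0.68 to 4.16), and neither passed, though Wfdc8 did in DESeq2 and without WT LE replicate 2 or E-OEX LE replicate 3.

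U-OEx luminal epithelium was compared with WT LE over 37 genes. Of these, 13 rose and 13 fell, 26 in all (70.3%), where 56.9% of all 5949 genes tested passed, 29.1% higher and 27.8% lower. The 37 had reached a mean of 10 in some group, while a test needed a mean of only 1. With a mean of at least 10 required of all, 21 of 31 passed, against 3011 of 4782 over all genes. A gene tested here was listed in WT because it differed between LE and GE there, which holds for nearly all of the 5949. The median log2 change of the 37 was -0.15, against 0.09 for all genes. The groups did not overlap for 24 of 37 (64.9%), near the 63.8% of all genes. Klk10, Wfdc15b and Serpina1e, called in E-OEX LE, were called in the same direction here, but both comparisons use the same 3 WT LE libraries.

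Among the proteases, Klk10 stood at 3439.6, 1998 and 1634 in U-OEx LE, against 132, 28.7 and 88.3 in WT LE, a log2 change of 4.97 (SE 0.59, limma adjusted p = 0.000218). Klk11 stood at 1002, 1142 and 935, against 209, 149.5 and 258, a log2 change of 2.32 (SE 0.28, limma adjusted p = 0.000272). All U-OEx libraries were above all WT ones for both genes, and both passed in every alternative run. Klk8, or neuropsin, went the other way, from 77.7, 15.4 and 29.1 to 8.27, 7.11 and 10.6, a log2 change of -1.85 (SE 0.67, limma adjusted p = 0.0439). That call was lost in 5 of the 6 fits that left out a library (all but the one without WT LE replicate 2), with a pseudocount of 0.1 and after quantile normalization.

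The Prss genes split. Prss33 (ENSMUSG00000049620, chr17:23833347-23836056, minus strand) stood at 196, 190.5 and 234 in WT LE and had no read in any U-OEx library, which places it at least 75.8-fold lower (limma adjusted p = 9.85e-06). Prss22, a tryptase-like secreted protease, stood at 78.7, 775 and 179 in WT LE and at 1682, 1294 and 2352 in U-OEx LE, a log2 change of 2.93 (SE 0.70, limma adjusted p = 0.00764). Prss27 rose from 6.22, 38.9 and 13.4 to 93.7, 51.5 and 65.3, a log2 change of 2.09 (SE 0.63, limma adjusted p = 0.0214), but did not pass without WT LE replicate 3 or without U-OEx LE replicate 1 or 3. In all 3 of these genes and in Prss23 the groups did not overlap on the rescaled values.

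WT LE replicate 2, with the highest stromal sum, held the highest WT luminal values of Prss22, Prss27, Prss23 and Prss23os. WT GE, with stromal sums of 27110 to 78415, held Prss22 at 1.90 to 4.87 and Prss27 at 0.865 to 1.95. It held Prss23 at 155 to 191 and Prss23os at 3.79 to 5.84. The part of stromal RNA in these values was not tested. Prss23 stood at 789, 6163 and 2126 in WT LE and at 824, 555 and 555 in U-OEx LE, a log2 change of -1.80 (SE 0.61, limma adjusted p = 0.0343). It failed the threshold without WT LE replicate 2, in 4 other fits that left out a library (WT LE replicate 3 and each U-OEx LE replicate) and after quantile normalization. Prss23os, antisense to Prss23 and inside it, had -1.19 (interval -2.94 to 0.56) and did not pass, except in DESeq2 and without WT LE replicate 1. Whether the counting used strand is not stated, so reads of this pair cannot be told apart.

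The membrane proteases that passed all rose. Tmprss11g (ENSMUSG00000079451, chr5:86485876-86518600, minus strand) stood at 0, 13.3 and 2.24 in WT LE and at 1297, 524 and 1342 in U-OEx LE, a log2 change of 8.11 (SE 0.90, limma adjusted p = 0.000163). Tmprss6, or matriptase-2, known from the liver for its control of iron uptake, stood at 47.7, 4.10 and 25.7 and at 1012, 740.2 and 829.8, a log2 change of 5.48 (SE 0.78, limma adjusted p = 0.000571). U-OEx luminal Tmprss6 lay above the WT GE values of 280.3, 289 and 319, while Tmprss11g lay below the WT GE values of 1844 to 3477. Tmprss11b and Tmprss11a had at most 1 read in any WT LE library and values of 10.1, 5.33 and 17.3 and of 0.919, 1.78 and 3.84 in U-OEx LE. Tmprss11b was at least 3.39-fold higher, and Tmprss11a, at 4 reads or fewer, passed in this fit (limma adjusted p = 0.0396) but not in edgeR, with the replicate block or without any 1 of the 3 WT LE libraries.

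Tmprss2, an epithelial protease regulated by androgen in the prostate, had the highest Tmprss level of WT LE. It stood at 6161, 4401 and 5569 in WT LE and at 4333, 4284 and 3989 in U-OEx LE, a log2 change of -0.36 (SE 0.23, limma adjusted p = 0.203), which did not pass. After quantile normalization the sign turned, to 0.52 (limma adjusted p = 0.0374). It also passed, as a fall, without WT LE replicate 2.

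**Figure D3:**
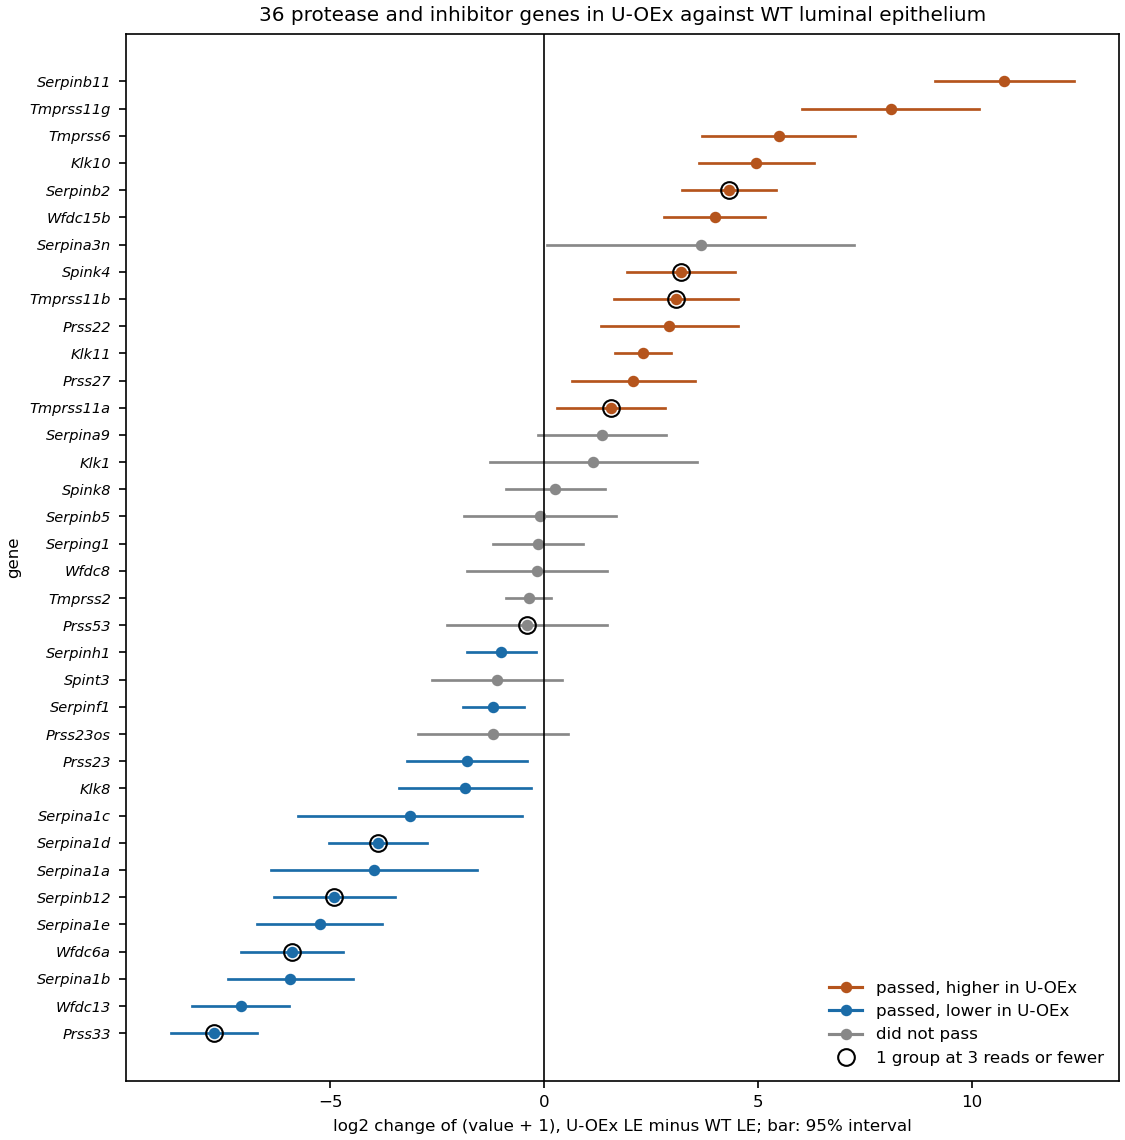
Log2 change of (value + 1) in U-OEx LE minus WT LE for 36 of the genes tested, with 95% intervals, ordered by change. Orange genes passed and were higher, blue ones passed and were lower, grey ones did not pass, and a ring marks genes with 1 group at 3 reads or fewer in every library. Serpinb11 (10.76) stands at the top and Prss33 (-7.72) at the bottom.

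Among the inhibitors, every Serpina1 gene fell. Serpina1e stood at 243, 587 and 73.0 in U-OEx LE, against 8446, 8203 and 8011 in WT LE, a log2 change of -5.25 (SE 0.64, limma adjusted p = 0.000257). Serpina1b stood at 237, 129 and 171 in WT LE and 0.919, 0.889 and 5.76 in U-OEx LE (-5.93 on the log2 scale, limma adjusted p = 0.000133). Serpina1d had no read in U-OEx LE and was at least 5.10-fold lower (limma adjusted p = 0.000343).

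Serpina1a had -3.98 (limma adjusted p = 0.012), and did not pass without U-OEx LE replicate 1. Serpina1c had -3.14 (limma adjusted p = 0.0447), its groups overlapped, and it did not pass in edgeR or DESeq2, with a pseudocount of 0.1 or in 5 of the 6 fits that left out a library (all but the one without U-OEx LE replicate 3). In WT LE each of the other 4 copies was at 237 or less in every library, against 8011 or more for Serpina1e, and the sequences shown above are near-identical, so part of their reads may belong to Serpina1e. The annotation of Serpina1b also spans Serpina1d.

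Of the Serpina3 genes only Serpina3n was listed in WT. It stood at 0, 11.3 and 6.71 in WT LE and at 193, 3.55 and 205 in U-OEx LE, a log2 change of 3.67 (SE 1.56, limma adjusted p = 0.0764), and the groups overlapped, with U-OEx LE replicate 2 below the highest WT value. It passed in edgeR and DESeq2 (lowest adjusted p = 0.00163) and without U-OEx LE replicate 2 (limma adjusted p = 0.00657). Serpina9, or centerin, stood at 44.5, 8.19 and 19.0 and 65.2, 55.1 and 38.4 and did not pass (1.35 on the log2 scale, limma adjusted p = 0.11), except without WT LE replicate 1.

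Clade B serpins, most of which act inside cells, held the largest rise of the 37. Serpinb11 (ENSMUSG00000026327, chr1:107361198-107380475, plus strand) stood at 2.07, 6.14 and 0 in WT LE and at 6414, 6833 and 2723 in U-OEx LE, a log2 change of 10.76 (SE 0.70, limma adjusted p = 1.62e-05). Its WT GE values were 146, 181 and 142, so all 3 U-OEx luminal libraries exceeded both WT epithelia. Serpinb2, or plasminogen activator inhibitor 2, had no read in WT LE and was at 17.5, 22.2 and 17.3 in U-OEx LE, which is 5.87-fold higher or more (limma adjusted p = 0.000165). Its gene overlaps that of Serpinb10 on the same strand. Serpinb12 fell from 19.7, 70.7 and 32.4 to 0.919, 0 and 0, at least 14.6-fold lower (limma adjusted p = 0.000305), and Serpinb5 stood at 14.5, 153 and 42.5 and 51.5, 25.8 and 62.4 with no call (-0.09, interval -1.87 to 1.69).

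Of the other clades, Serpinf1, which encodes pigment epithelium-derived factor, an inhibitor of vessel growth rather than of proteases, fell from 1301, 1530.1 and 1475 to 963, 621 and 433, a log2 change of -1.19 (SE 0.31, limma adjusted p = 0.0115), and it passed in every alternative run. Serpinh1 stood at 893, 1425 and 728 in WT LE and 742, 386 and 424 in U-OEx LE, a log2 change of -0.999 (SE 0.35, limma adjusted p = 0.0404). Its groups overlapped, and it did not pass without WT LE replicate 1 or 2 or U-OEx LE replicate 2 or 3. Serping1, at 1851, 7552 and 4444 and 5187, 2792 and 3277, did not pass (-0.15, interval -1.20 to 0.90).

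The small inhibitors also split. Wfdc15b rose from 14.5, 7.17 and 19.0 to 199, 361 and 145, a log2 change of 3.99 (SE 0.51, limma adjusted p = 0.000354). Wfdc13 (ENSMUSG00000067704, chr2:164685107-164687706, plus strand) fell from 499, 323 and 515 to 0.919, 2.67 and 3.84, a log2 change of -7.10 (SE 0.49, limma adjusted p = 1.95e-05). Wfdc6a stood at 77.7, 39.9 and 60.4 in WT LE and had no read in U-OEx LE, at least 22.1-fold lower (limma adjusted p = 5.64e-05). The groups of all 3 genes were far apart.

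Spink4, a Kazal inhibitor known from goblet cells, had at most 1 read in WT LE libraries and was at 17.5, 10.7 and 14.4 in U-OEx LE, a rise of at least 4.40-fold (limma adjusted p = 0.00158). Spink8 stood at 111, 125 and 232 and 164, 361 and 98.9 and Wfdc8 at 72.5, 24.6 and 54.8 and 14.7, 72.0 and 68.2, with intervals on both sides of 0. Spint3 (-1.10), Prss53 (-0.40) and Klk1 (1.15) completed the 11 genes that did not pass.

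Markers of both epithelia also differed between these groups. The luminal sum was 4094 to 6399 in U-OEx LE and 29877 to 54681 in WT LE, with Calb1 at 254, 252 and 209 in U-OEx LE and 44990.0, 17811 and 35781 in WT LE, and its part in the falls of luminal genes such as Serpina1e, Prss33 and Wfdc13 was not tested. The glandular sum over 6 genes was 1565 to 2432 in U-OEx LE, 118 to 300.1 in WT LE and 16062 to 19587 in WT GE. On the log2 scale Foxa2 (5.66), Cxcl15 (3.80), Lif (3.91), Sox9 (2.34) and Spdef (6.20) were called higher in U-OEx LE. Ttr, at 1156 to 1463 in WT GE, was at 0 in all U-OEx LE libraries and at 11.2 to 42.5 in E-OEX GE. The part of gland RNA in the luminal rises of Tmprss11g, Tmprss11a, Tmprss11b, Tmprss6, Serpinb11, Serpinb2, Spink4 and Wfdc15b, all higher in GE than in LE in WT, was not tested. On the separately scaled values, U-OEx LE exceeded WT GE in Serpinb11 and Tmprss6 in every library. It lay below WT GE in Tmprss11g, Tmprss11a, Tmprss11b and Wfdc15b, and the groups overlapped in Serpinb2 and Spink4.

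These genes sit in clusters. With gaps of up to 500 kb allowed, 12 clusters held 57 of the 73 genes, and clustered neighbours did not always move alike. In the kallikrein cluster on chromosome 7, Klk10 starts 1771 bases after the end of Klk11, and both rose in U-OEx LE, while Klk8, downstream of Klk10 and 819 bases after the end of Klk9, was lower. Klk9, listed in E-OEX and U-OEx alone, stood at 35.6, 15.4 and 18.3 in E-OEX LE and 18.4, 18.7 and 30.7 in U-OEx LE and had no read in E-OEX GE.

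On chromosome 12, 11 Serpina genes lie within 686 kb. The 5 Serpina1 genes, side by side on the minus strand, fell, and the 5 Serpina3 genes, on the plus strand, were either not tested (4) or not called (Serpina3n). On chromosome 1, 8 Serpinb genes lie within 749 kb, with Serpinb12 lower and Serpinb11 and Serpinb2 higher. The Wfdc genes of chromosome 2 gave 1 rise (Wfdc15b) and 2 falls (Wfdc6a and Wfdc13) among 5 tested, and all 3 Tmprss11 genes tested on chromosome 5 rose.

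**Figure D4:**
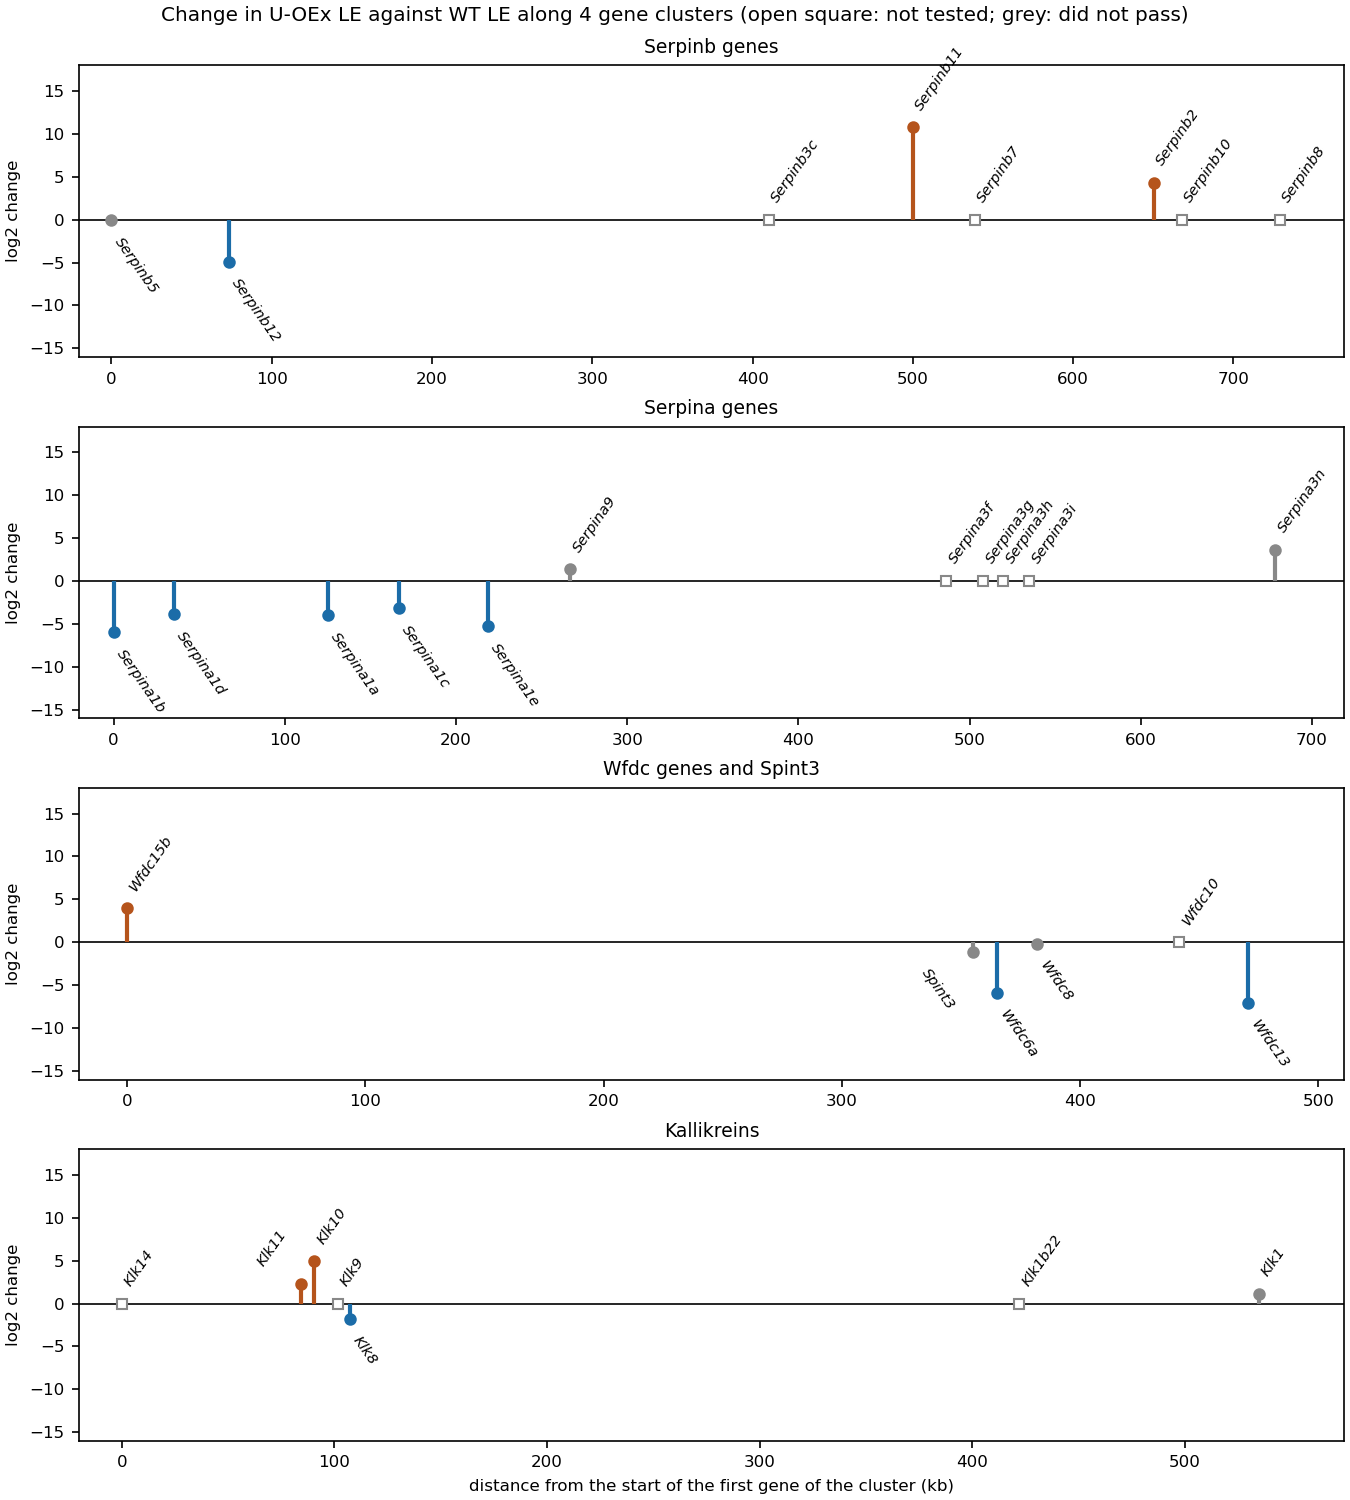
Log2 change of (value + 1) in U-OEx LE minus WT LE at the start of each gene along 4 clusters, by distance in kb from the first gene, in orange (passed, higher), blue (passed, lower), grey (did not pass) or as an open square (not tested). The 5 Serpina1 genes all lie below 0, while Klk10 and Klk8 lie on opposite sides.

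U-OEx and E-OEX luminal epithelium were compared directly over 29 genes, and 7 passed (24.1%), 5 higher and 2 lower in U-OEx, where 15.0% of all 4275 genes did, 6.97% higher and 8.05% lower. With a mean of at least 10 required of all, 5 of 25 passed, against 558 of 3217 over all genes. The median log2 change was 0.66, against 0.06 for all genes, and the groups did not overlap for 13 of 29 (44.8%), against 38.2% of all genes. Single libraries moved this count widely. It was 13 without E-OEX LE replicate 1, 2 without E-OEX LE replicate 2 or 3, 1 without U-OEx LE replicate 1 or 3, and 3 without U-OEx LE replicate 2. The count over all genes moved too, from 642 to between 60 and 904.

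Cell markers also differed between these groups in the same test. The luminal markers Calb1 (-4.12 on the log2 scale, limma adjusted p = 0.00638) and Lpar3 (-2.58, 0.0133) were lower in U-OEx LE. The glandular marker Spdef (2.85), the leukocyte marker Itgam (3.23), the endothelial markers Pecam1 (2.90) and Emcn (1.93), Acta2 of smooth muscle (3.23) and Kit of mast cells (2.70) were higher, and none of 8 stromal markers passed. The luminal sum was 4094 to 6399 in U-OEx LE and 9776 to 15547 in E-OEX LE, and the glandular sum 1565 to 2432 and 192 to 1780.1. The part of these cell types in the calls was not tested.

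Serpinb2 passed with each library left out. It had at most 1 read in E-OEX LE libraries and was at 17.5, 22.2 and 17.3 in U-OEx LE, a rise of at least 5.96-fold (limma adjusted p = 0.00619). Spink12, a Kazal inhibitor, stood at 665, 292 and 20.5 in E-OEX LE and 6371, 4125 and 6041 in U-OEx LE, a log2 change of 4.94 (SE 1.03, limma adjusted p = 0.0185). All U-OEx libraries were above all E-OEX ones, and per kilobase Spink12 had the highest U-OEx level of the 73 genes (5474), ahead of Serpinb11 (2435) and Spint2 (2250.1). It did not pass without U-OEx LE replicate 1 or 3.

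The other 5 calls were each lost in 5 of the 6 fits that left out a library, all but the one without E-OEX LE replicate 1. Serpinf2 was also lost with the replicate block, with a pseudocount of 0.1 and in edgeR, Serpina3i with that pseudocount, on the deposited scale and in edgeR, and Serpinh1 with the replicate block. Serpina3i stood at 52.9, 0 and 3.24 in E-OEX LE and 188, 76.4 and 154 in U-OEx LE (4.40, limma adjusted p = 0.0453), Prss27 had 2.21 (limma adjusted p = 0.0314) and Serpinf2, or alpha-2-antiplasmin, was at least 3.77-fold higher (limma adjusted p = 0.0366). Serpinf1 had -1.68 (limma adjusted p = 0.0275) and Serpinh1 -1.68 (limma adjusted p = 0.0318). Serpina3i and Serpina3h, an annotated pseudogene next to it, had near-parallel values, with Serpina3h at 57.5, 0 and 5.40 and 164, 105 and 92.2, and reads of such copies may be shared.

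For the genes changed in both luminal comparisons with WT, the direct test gave no call. Klk10 had 0.66 (interval -0.78 to 2.10), Serpina1e -1.60 (interval -3.72 to 0.52) and Wfdc15b -0.71 (interval -1.69 to 0.27). Klk11 had 1.01 (interval 0.03 to 1.99, limma adjusted p = 0.141) although its groups did not overlap. Klk10 and Klk11 passed as higher in U-OEx LE without E-OEX LE replicate 1, the library with the most glandular marker RNA of its group. Tmprss4, a membrane protease of many epithelia, stood at 1732, 970.0 and 1403 and 2409, 1653 and 1556 with no call (0.33, interval -0.41 to 1.07).

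The 22 genes listed in U-OEx alone could not be compared with another group and are given as levels, with the examples chosen after their values were seen, except Spint2, the highest Spint gene. The Kunitz inhibitors Spint2 and Spint1, which restrain the surface proteases matriptase and prostasin, stood at 10729, 10507 and 9518 and at 2782, 3269 and 2437. Prostasin itself (Prss8), which activates the epithelial sodium channel, stood at 608, 818 and 489. Serpina3g stood at 4283, 2413 and 2769, Prss32 at 436, 278 and 623 and Tmprss11d at 549, 231 and 582. Of the intracellular serpins, Serpinb6a was the steadiest at 571, 571 and 597, and Serpinb9, which blocks granzyme B, stood at 200.3, 176 and 106. Klk1b22, of the large mouse Klk1b family of near copies, stood at 32.2, 51.5 and 0.

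Within U-OEx LE the median ratio of the highest to the lowest library was 1.96 over 59 genes with a mean of at least 10. It was above 5 for 7 genes, and 1 more had a library at 0. Replicate 2 was set apart in several genes. Serpina3n was 193, 3.55 and 205, Wfdc17 589, 53.3 and 918 and Wfdc21 197, 14.2 and 358, all lowest in replicate 2. The leukocyte markers S100a8 (6694, 456 and 10773), Ptprc (1569.6, 441 and 2705), Itgam (994, 546 and 1138) and Csf1r (790.3, 359.9 and 1165) were lowest in the same library. Serpinb10 (63.4, 802 and 33.6) and Serpinb7 (57.9, 281 and 73.0) were highest there, while the ratio of highest to lowest was 1.54 for Spink12. The part of leukocyte RNA in these spreads was not tested.

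**Figure D5:**
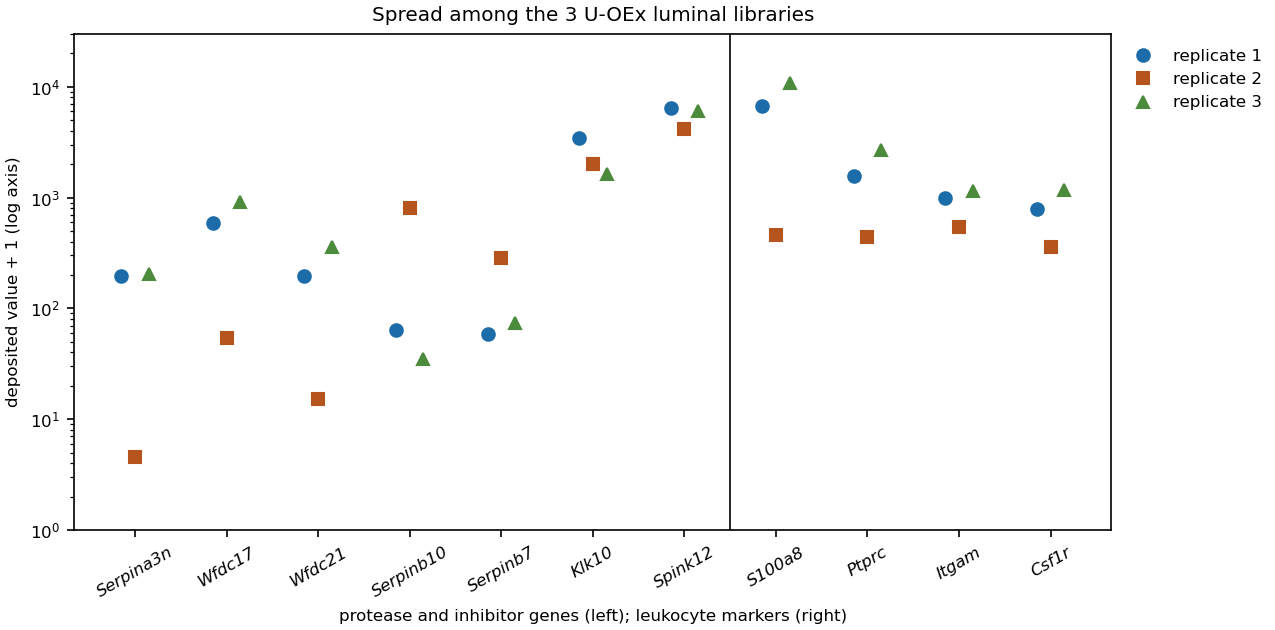
Deposited values + 1 on a log axis in the 3 U-OEx LE libraries, for 7 protease and inhibitor genes (left of the line) and 4 leukocyte markers (right). Replicate 2 (square) is lowest for Serpina3n, Wfdc17, Wfdc21 and all 4 markers and highest for Serpinb10 and Serpinb7.

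In E-OEX LE the spread was wider, with a median ratio of 3.46 over 24 genes, and in WT LE it was 3.27 over 28 genes, against 1.68 in WT GE (20 genes) and 2.19 in E-OEX GE (15 genes). E-OEX LE replicate 1 was the highest in Wfdc17 (82.2, 11.8 and 6.48), Wfdc18 (229, 4.54 and 28.1) and Serpina3i, and E-OEX LE replicate 3 in Serpine2 (31.0, 12.7 and 312), or protease nexin 1, and Serpinb12 (0.913, 8.17 and 56.1). Serpine2 was higher in E-OEX GE, at 521, 461 and 685.

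A list of 62 other serine protease, receptor and inhibitor genes was counted in the same tests. In U-OEx LE against WT LE, 12 of 24 tested rose and 2 fell, where 29.1% of all genes were higher and 27.8% lower. The plasminogen activators Plat (1.71) and Plau (2.76) rose on the log2 scale beside their inhibitor Serpinb2. Hgfac, the activator of hepatocyte growth factor, rose by 4.85 (SE 0.49, limma adjusted p = 0.000107), from a mean of 30.4 to 778 on the rescaled values. Pcsk5 (4.01), Htra1 (2.53), Htra3 (2.08), Cfb (3.35) and the elastase inhibitor Slpi (4.56) rose. The thrombin receptor F2r rose (1.54) and the trypsin receptor F2rl1 fell (-1.76), as did Pi15 (-3.27).

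In E-OEX LE 1 of 16 list genes tested passed, where 10.7% of all genes did. It was Hgfac, which rose by 3.09 (SE 0.63, limma adjusted p = 0.0166). In E-OEX GE 1 of 18 rose, Cfb (2.74), and 4 fell, the clotting starter tissue factor F3 (-1.18), its inhibitor Tfpi2 (-2.13), Timp4 (-3.06) and Hgfac (-0.77), where 9.72% of all genes were higher and 13.8% lower. The interaction passed for 5 of 18, Hgfac (-3.57) and F3 (-2.13) negative and Pi15 (4.07), Itih5 (3.26) and Tfpi (3.02) positive, where 10.7% of all genes passed. In U-OEx LE against E-OEX LE, Scnn1b, a subunit of the epithelial sodium channel (2.54), Pcsk5 (1.71) and Hgfac (1.48) were higher and F3 (-2.08) was lower, 4 of 24 tested, where 15.0% of all genes passed.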

How the data were processed

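RNA from luminal and glandular uterine epithelium was sequenced by the authors (Qiagen RNeasy, NEBNext Ultra kit, per the labels' protocols). The deposited value of a gene, used as signal, is a read count that the authors divided by 1 factor per library, and undoing that factor gave whole reads for 100% of values within 0.01. The submitters' processing notes name the build GRCm38/mm10, while the aligner, the counter and the strand setting are not given in the sources used here. Positions and exon lengths came from GENCODE M21 (GRCm38).

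Recovered reads of the genes shared by both tables were rescaled with edgeR 4.0.16 (TMM). limma 3.58.1 in R 4.3.3 tested log2(value + 1) with a trended variance over genes of mean at least 1, with Benjamini-Hochberg adjustment over all genes at 0.05. The interaction used the deposited scale. A group with 3 reads or fewer in every library was at the floor, and folds against it are lower bounds. Count tests ran on recovered reads in edgeR and DESeq2 1.42.0. Tests were also run on simulated counts with a common spread for all genes. Only genes well above the floor were changed there, so changes in low genes were not checked that way.

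Members, marker lists and the list of other protease genes were chosen with earlier results of these data known. Genes named were those past the threshold, those listed in all tables and the highest of each family, and other members named were chosen after their values were seen. Alternatives were the replicate block, pseudocounts, filters, other scalings, both count tests, 1 fit over all groups and each library left out. Replicate numbers did not pair the libraries by the correlation of their deviations. Groups were taken from the labels. Counts cover all members tested, and the values of 1 of them are not reported here. No libraries of a group were near-identical (chi-square per degree of freedom 16.6 to 182).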

Additional observations from a re-analysis of the deposited data

Results flagged for a closer look

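The genotype effect differed between glandular and luminal epithelium for 3 genes by limma's interaction test on log2(value + 1) of the deposited scale. Wfdc15b had a difference of -3.76 (adjusted p = 0.00166), Klk1 one of 4.17 (adjusted p = 0.0274) and Serpina1e one of 4.10 (adjusted p = 0.031). Klk1 was lost after rescaling the reads together, with a pseudocount of 0.1 and in 5 of the 12 fits that left out a library, and Serpina1e in edgeR, after quantile normalization and in 8 of the 12, while Wfdc15b passed throughout. Wfdc15b rose in E-OEX LE and was not called in GE, Klk1 rose in GE and was not called in LE, and Serpina1e fell in LE and was not called in GE. The part of differing glandular and luminal marker RNA in these results was not tested.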

How the results depend on the processing

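Of 107 changes tested over the 5 comparisons, 42 passed, and 23 of these passed in every setting and with each library left out. With 1 library left out, the count of genes past the threshold ranged from 1 to 3 for E-OEX LE against WT LE, from 1 to 13 for U-OEx LE against E-OEX LE and from 1 to 5 for the interaction. DESeq2 gave 12 for U-OEx LE against E-OEX LE. In 1 fit over all 5 groups, which holds only the 15 genes listed in every table, 10 passed for U-OEx LE against WT LE. Tmprss2 in U-OEx LE turned to 0.52 under quantile normalization.

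With the replicate block 3, 3, 25, 9 and 3 genes passed in E-OEX LE, E-OEX GE, U-OEx LE against WT LE, U-OEx LE against E-OEX LE and the interaction. The block is a pairing by number only, since the deviations of same-numbered libraries did not all correlate.

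Over all genes, DESeq2 called 458 and 1 fit 616 in E-OEX LE (277 in the main test), 1 fit called 285 in E-OEX GE (670.0), 1 fit 1274 in U-OEx LE against WT LE (3384), and DESeq2 501 for the interaction (315). With 1 library left out E-OEX LE had 56 to 322 calls, E-OEX GE 362 to 728, U-OEx LE 2757 to 3439 against WT LE and 60 to 904 against E-OEX LE (642), and the interaction 179 to 449, so the background shares move with single libraries as well. On the deposited scale 58.6% of calls in E-OEX LE were higher (48.0% rescaled) and 71.6% in E-OEX GE (41.3%). For the interaction 43.9% were positive after rescaling, 42.9% after quantile normalization and 66.9% in DESeq2 (54.3% on the deposited scale). Rescaling moved the median of all genes from 0.50 to 0.05 in E-OEX GE, from 0.19 to 0.06 in U-OEx LE against E-OEX LE and from 0.33 to 0.07 in the interaction.

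Depth limits the low genes, among them Tmprss11a, Tmprss3, Serpinf2, Prss35, Spink4, Prss53 and Serpina1d, whose values rest on few reads.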
